A study of Mus musculus with 16 samples.

Results

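The genes described here are 10 genes of the cells that line blood vessels: Kdr, Flt1, Plvap, Pecam1, Cdh5, Tek, Tie1, Emcn, Esam and Eng. They were chosen by name, with earlier results of these data known, and all 10 were found among the 54532 genes of both deposited tables. The libraries came from KPC1199, a mouse pancreatic cancer line, whose cells had been implanted into the pancreas and sorted out of the tumours that grew. The 4 groups were cells overexpressing Ly6d, a cell surface protein gene of the Ly6 family, WT cells of the same line, cells sorted as Ly6d-high and cells sorted as Ly6d-low, with 2 libraries each. The labels give no animal age, host strain, sorting gate or number of clones. Of the 16 samples labelled in the series, the 8 of whole tumour tissue were not analysed here.

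The groups of the count table rest on column names. The WT columns carry the names of the sorted WT libraries, although the same letters also occur inside the names of tumour tissue libraries. The overexpression columns are named as the labels name whole overexpression tumours, while the sorted overexpression samples have another name, so their assignment to the sorted group is an inference. If these columns were tissue libraries, a difference between tissue and sorted cells could not be told apart from the effect of overexpression. Ly6d itself was at 3380 and 3423 CPM (counts scaled to library size) in overexpression libraries, against 1260 and 1066 CPM in WT libraries (log2 fold change 1.53 ± 0.08 SE, edgeR adjusted p = 1.66e-07). It was at 697 and 504 TPM (counts scaled to gene length and library size) in Ly6d-high libraries, against 1.56 and 0.352 TPM in Ly6d-low libraries, a difference that the sort had set. Totals ran from 15449241 to 18290325 counts in the first pair of groups and from 15063975 to 20509539 recovered reads in the second. Nothing in the labels says that the 2 libraries of a group came from separate animals, so p-values measure the spread between these libraries only.

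Endothelial cells form the inner wall of blood vessels and are not part of the tumour cell lineage. They grow and survive on vascular endothelial growth factor (VEGF), which is received by the tyrosine kinases that Kdr and Flt1 encode, and they settle into stable vessels through the Tie receptors. The pancreas has dense capillaries with fenestrae, small windows that let hormones pass out of the islets. The 10 genes thus cover growth factor receptors, junction and adhesion proteins, a TGF-beta family co-receptor, a protein of the fenestrae and a surface mucin.

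The promoters of 6 of the 10 genes were matched in RefSeq (build GRCm38.p6): Kdr, Flt1, Tek, Tie1, Emcn and Eng. Of these, 4 are shown because their genes stand for the patterns described below: Kdr, with the largest fall, its relative Flt1, at near-equal levels in overexpression and WT cells, and Tie1 and Eng, which fell. Each runs 5′ to 3′ on the strand of its gene, from 250 bases before to 50 bases after the start annotated in RefSeq. The RefSeq start of Tie1 lies inside the gene span given below, which reaches 118490061, so most of its window falls within that span. Capitals mark AGGAAG or its reverse complement CTTCCT. These letters are an extended form of the core recognised by ETS factors, a transcription factor family with many endothelial members. Shorter forms of that core were not searched.
Kdr, chr5:75978406-75978705, minus strand: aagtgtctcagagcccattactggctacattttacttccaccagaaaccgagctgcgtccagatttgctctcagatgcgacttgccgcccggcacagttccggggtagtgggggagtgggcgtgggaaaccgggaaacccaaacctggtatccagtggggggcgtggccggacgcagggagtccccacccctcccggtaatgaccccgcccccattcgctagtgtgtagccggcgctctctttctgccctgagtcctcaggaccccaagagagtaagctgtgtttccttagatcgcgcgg
Flt1, chr5:147725962-147726261, minus strand: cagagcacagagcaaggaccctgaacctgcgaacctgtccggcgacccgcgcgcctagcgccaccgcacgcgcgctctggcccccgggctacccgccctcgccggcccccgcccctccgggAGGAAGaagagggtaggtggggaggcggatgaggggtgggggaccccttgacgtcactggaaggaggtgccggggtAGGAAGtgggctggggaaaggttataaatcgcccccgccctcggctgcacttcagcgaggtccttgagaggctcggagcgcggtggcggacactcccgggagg
Tie1, chr4:118489800-118490099, minus strand: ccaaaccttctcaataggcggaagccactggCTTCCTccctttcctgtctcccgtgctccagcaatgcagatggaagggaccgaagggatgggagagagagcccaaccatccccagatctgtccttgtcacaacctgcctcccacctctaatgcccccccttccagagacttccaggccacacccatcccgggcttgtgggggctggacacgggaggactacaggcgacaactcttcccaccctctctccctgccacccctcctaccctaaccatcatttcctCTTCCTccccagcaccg
Eng, chr2:32646345-32646644, plus strand: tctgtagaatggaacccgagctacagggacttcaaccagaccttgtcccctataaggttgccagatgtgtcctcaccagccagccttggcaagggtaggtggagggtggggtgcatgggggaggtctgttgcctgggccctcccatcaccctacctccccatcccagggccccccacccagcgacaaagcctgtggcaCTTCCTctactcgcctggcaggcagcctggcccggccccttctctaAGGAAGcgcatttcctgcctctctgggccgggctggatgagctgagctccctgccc

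AGGAAG, searched on both strands, was present in 4 of the 6 matched promoters, in those of Flt1, Tie1, Emcn and Eng, each with 2 matches. It was present in 35.4% of all 32851 promoters of this length. The Kdr window held no match to these letters and 2 matches to the GC box GGGCGG, while the Flt1 window held 3 GC boxes and a TATAAA match 31 bases before the start. GGGCGG was present in 35.7% and TATAAA in 13.6% of all promoters. The E-box CANNTG occurred in 5 of the 6 windows and in 72.3% of all promoters, AGATAA, which GATA factors bind, in 1 of 6 and in 11.2%, and the forkhead core TGTTTA in 0 of 6 and in 13.4%. Motifs were counted independently, so matches may overlap, and a match is a description of letters only.

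The first comparison set the overexpression libraries, assigned to sorted cells by inference, against the WT libraries. Genes of most endothelial roles fell in overexpression relative to WT cells, while the VEGF receptor gene Flt1 had near-equal levels in both. Of the 10 genes, all of which passed the filter on low counts, 6 fell: Kdr, Plvap, Pecam1, Tie1, Emcn and Eng (edgeR quasi-likelihood test, Benjamini-Hochberg adjusted p under 0.05 over all 15771 genes tested). Over all genes, 1.84% were lower, 2.32% higher and 4.16% called in either direction by the same rule. None of the 10 was higher, and at an unadjusted p under 0.05 the counts were 8 lower and 0 higher. DESeq2 gave 5 lower and 0 higher, and over all 25175 genes it tested, 287 lower and 388 higher. The share of all genes at an unadjusted p under 0.05 was not counted for either comparison. Counts at that level, here and below, therefore have no background to be set against. The median log2 fold change of the 10 genes was -0.92, against -0.00119 over all genes. Together they made up 428 and 449 CPM in overexpression libraries, against 604 and 588 CPM in WT libraries. In these libraries, fewer cells carrying these mRNAs and less of them per cell cannot be told apart. Which cells carried them was not tested.

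**Figure D1:**
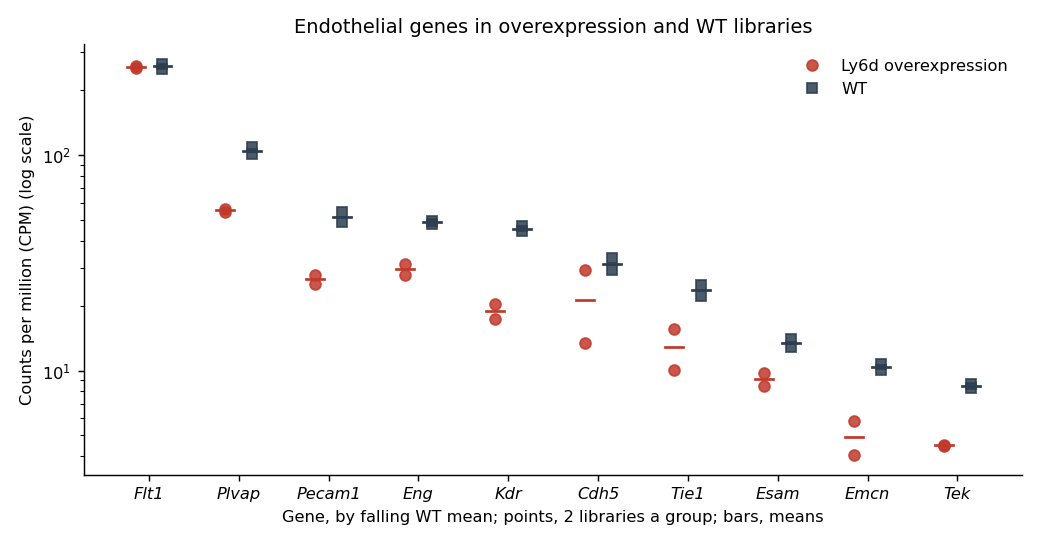
CPM (log axis) of the 10 endothelial genes, in order of falling WT mean, in the 2 overexpression libraries (circles, left of each pair) and the 2 WT libraries (squares, right); short bars are group means. The overexpression points lie below the WT points for 9 genes, while those of Flt1 overlap at 253 to 259 CPM in overexpression and 251 to 266 CPM in WT libraries.

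Of the VEGF receptor genes, Kdr fell and Flt1 did not pass the test. Kdr (ENSMUSG00000062960, GRCm38 chromosome 5, 75932827 to 75978458) encodes the main signalling receptor for VEGF-A on endothelium. It was at 17.3 and 20.3 CPM in overexpression libraries, against 44.3 and 46.9 CPM in WT libraries, so both overexpression libraries lay well under both WT libraries. Its log2 fold change was -1.29 ± 0.14 (SE; edgeR adjusted p = 0.000179), the largest fall of the 10. Flt1 (ENSMUSG00000029648, chromosome 5, 147561604 to 147726011) encodes the other VEGF-A receptor, which binds the ligand tightly but signals weakly and, as a soluble form, traps it. It was at 259 and 253 CPM in overexpression libraries, against 266 and 251 CPM in WT libraries, and the groups overlapped. Its log2 fold change of -0.03 ± 0.06 (SE; edgeR adjusted p = 0.857) rests on 3872 to 4812 counts a library, the highest of the 10 genes. Counted per length, the level of Flt1 was 9.98 and 8.34 times that of Kdr in the same overexpression library, against 4.01 and 3.58 times in WT libraries. The groups did not overlap in this ratio, but with 2 libraries each an exact permutation test cannot give a p below 0.333.

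The Tie receptors were lower in both overexpression libraries than in either WT library. Tie1 (ENSMUSG00000033191, chromosome 4, 118471191 to 118490061), a receptor with no well-settled ligand of its own that modulates signalling through Tek, was at 10.1 and 15.7 CPM in overexpression libraries, against 24.9 and 22.3 CPM in WT libraries. It fell by 0.89 ± 0.21 on the log2 scale (SE; edgeR adjusted p = 0.0368), and missed the threshold when WT replicate 1 was left out (adjusted p = 0.0556). Tek (ENSMUSG00000006386, chromosome 4, 94739289 to 94874976), the receptor of the angiopoietins, was at 4.48 and 4.50 CPM in overexpression libraries, against 8.34 and 8.67 CPM in WT libraries. Its log2 fold change of -0.94 ± 0.27 (SE) was about as large as that of Tie1 but did not pass the test (edgeR adjusted p = 0.0801), on 81 and 82 counts in overexpression and 134 and 151 in WT libraries. With 1 library left out, the log2 fold change of Tek was -0.94 without overexpression replicate 1 and -0.95 without overexpression replicate 2. It was -0.99 without WT replicate 1 and -0.90 without WT replicate 2. Tek passed the test with no filter on low counts (edgeR adjusted p = 0.0356), but not with DESeq2 (adjusted p = 0.205). The fit with no filter called 1187 of all 25175 genes tested.

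Junction and adhesion genes were less uniform. Pecam1 (ENSMUSG00000020717, chromosome 11, 106654217 to 106750628), an adhesion protein of endothelial junctions that platelets and leukocytes also carry, was at 27.7 and 25.3 CPM in overexpression libraries, against 54.7 and 48.8 CPM in WT libraries. It fell by 0.98 ± 0.12 on the log2 scale (SE; edgeR adjusted p = 0.000579). Cdh5 (ENSMUSG00000031871, chromosome 8, 104101625 to 104144511), the cadherin of endothelial adherens junctions, was at 13.4 and 29.2 CPM in overexpression libraries, against 33.3 and 29.4 CPM in WT libraries. The overexpression libraries differed from each other by more than the groups did, with 245 and 525 counts, and the second came close to the lower WT library. Its log2 fold change was -0.58 ± 0.27 (SE; edgeR adjusted p = 0.306), without overexpression replicate 1 it was -0.12, and without overexpression replicate 2 it was -1.25. Cdh5 passed the test with no filter on low counts (edgeR adjusted p = 0.00764), but not with DESeq2 (adjusted p = 0.850). The fit with no filter called 1187 of all 25175 genes tested. Esam (ENSMUSG00000001946, chromosome 9, 37528078 to 37538319), a tight junction adhesion protein also found on platelets, was at 8.47 and 9.78 CPM in overexpression libraries, against 14.0 and 12.9 CPM in WT libraries, with a log2 fold change of -0.58 ± 0.20 (SE; edgeR adjusted p = 0.154). The groups did not overlap for Esam, and its log2 fold change was -0.48 without overexpression replicate 1 and -0.69 without overexpression replicate 2.

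Genes of the co-receptor, the fenestrae and the surface coat fell. Eng (ENSMUSG00000026814, chromosome 2, 32646595 to 32682669) encodes endoglin, a co-receptor for BMP9 and TGF-beta, and its exons overlap those of Fpgs on the opposite strand. It was at 27.8 and 31.3 CPM in overexpression libraries, against 48.1 and 49.6 CPM in WT libraries, a log2 fold change of -0.74 ± 0.12 (SE; edgeR adjusted p = 0.00459). Plvap (ENSMUSG00000034845, chromosome 8, 71497765 to 71511752), which forms the diaphragms of fenestrae and caveolae, was at 56.3 and 54.4 CPM in overexpression libraries, against 101 and 109 CPM in WT libraries. It fell by 0.94 ± 0.09 on the log2 scale (SE; edgeR adjusted p = 8.57e-05), with the smallest adjusted p of the 10. Emcn (ENSMUSG00000054690, chromosome 3, 137341067 to 137432185), a mucin of capillary and venous endothelium, was at 4.05 and 5.83 CPM in overexpression libraries, against 10.1 and 10.7 CPM in WT libraries. It fell by 1.09 ± 0.27 on the log2 scale (SE; edgeR adjusted p = 0.0449), a call lost with DESeq2 (adjusted p = 0.0752), without WT replicate 1 (adjusted p = 0.0932) and without WT replicate 2 (adjusted p = 0.194). No source used here says if counting used strand, so reads of Eng and Fpgs cannot be told apart where they overlap.

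Across the 10 genes, 9 had both overexpression libraries below both WT libraries, and none had both above, while over all tested genes the shares were 21.7% and 26.3%. The overexpression libraries did not share a single order among these genes. Cdh5, Tie1 and Emcn were higher in replicate 2 than in replicate 1, as Kdr, Esam and Eng were by less, while Plvap, Pecam1 and Flt1 were slightly higher in replicate 1.

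**Figure D2:**
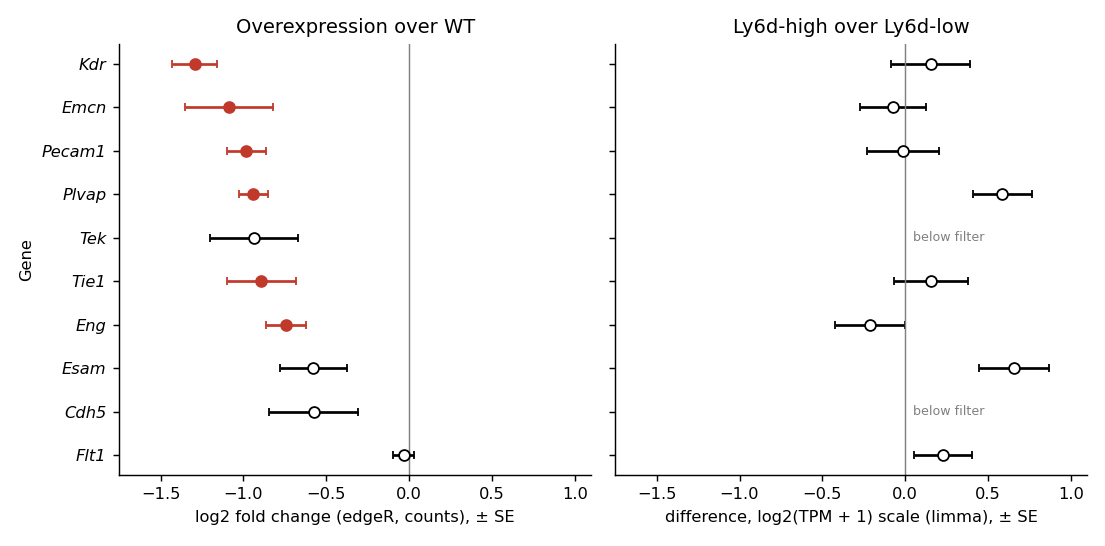
Fold changes of the 10 genes with their standard errors: overexpression over WT on the left (log2 fold change, edgeR) and Ly6d-high over Ly6d-low on the right (difference on the log2(TPM + 1) scale, limma); filled red points had an adjusted p under 0.05. The left panel holds 6 filled points, all below 0, with Flt1 at -0.03, and the right panel holds no filled point.

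Other genes of endothelial cells mostly had fold changes below 0, and a minority passed the test. Of 28 further pan-endothelial genes, all tested, 5 were lower, while 1.84% of all genes tested were. A fold change below 0 was found for 25 (median log2 fold change -0.58). At an unadjusted p under 0.05 with edgeR, 11 were lower and 2 higher. The 5 lower by the adjusted test were Ushbp1 (2.13 and 3.06 CPM in overexpression, against 9.61 and 9.19 CPM in WT libraries), Arhgef15, Adgrl4, Egfl7 and Ptprb. Ptprb, the phosphatase that restrains Tek, was at 31.7 and 25.0 CPM in overexpression libraries, against 44.7 and 48.9 CPM in WT libraries (log2 fold change -0.74 ± 0.14 SE, edgeR adjusted p = 0.0112). The sialomucin gene Podxl and the adhesion receptor gene Adgrf5 were near their WT levels: Podxl was at 169 and 168 CPM in overexpression libraries, against 178 and 176 CPM in WT libraries, and Adgrf5 at 153 CPM in both overexpression libraries, against 160 and 158 CPM in WT libraries, and neither passed the test; the pair was picked with these values in view. The von Willebrand factor gene Vwf, of endothelium and platelets, was at 12.1 and 18.2 CPM in overexpression libraries, against 9.77 and 10.6 CPM in WT libraries (log2 fold change 0.55 ± 0.23 SE, edgeR adjusted p = 0.230).

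The VEGF ligands and other receptors had a median log2 fold change of 0.07. Of these 8 genes, 1 passed the test, the lymphatic receptor Flt4, which was lower at 1.97 and 3.11 CPM in overexpression libraries, against 8.84 and 5.63 CPM in WT libraries. Vegfa, the main ligand of Kdr, named with its level already known, was at 581 and 567 CPM in overexpression libraries, against 561 and 519 CPM in WT libraries. The angiopoietin gene Angpt1, named likewise, was at 89.9 and 68.1 CPM in overexpression libraries, against 59.7 and 61.0 CPM in WT libraries, and did not pass the test (edgeR adjusted p = 0.136). Around endoglin, 1 of 9 tested genes was higher, the BMP target Id1, at 119 and 117 CPM in overexpression libraries, against 97.0 and 80.9 CPM in WT libraries (log2 fold change 0.39 ± 0.09 SE, edgeR adjusted p = 0.0345), and the ligand genes Gdf2 and Bmp10 were at 0 in all 4 libraries.

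Lists of vessel subtypes differed in their medians. The lymphatic list had 2 of 6 tested genes lower, Flt4 and the transcription factor gene Prox1 (6.67 and 6.17 CPM in overexpression, against 19.2 and 19.7 CPM in WT libraries), with a median log2 fold change of -0.92; Prox1 is also made in pancreatic epithelial cells. The defining lymphatic gene Lyve1, named with its values in view, did not pass the test (2.68 and 4.28 CPM in overexpression, against 3.87 and 2.46 CPM in WT libraries). Of 6 capillary genes, 6 had a fold change below 0 (median -0.53), and Car4 had the lowest p (edgeR adjusted p = 0.0599). In the venous list, led by Vwf, all 4 tested genes had a fold change above 0 (median 0.30), and in the arterial list, led by Efnb2 (edgeR adjusted p = 0.285), 3 of 5 did (median 0.09). The tip cell list of 7 genes, led by Kcne3 (edgeR adjusted p = 0.0789), had a median of -0.12, and the endothelial Notch list of 6 tested genes, led by Notch4 (edgeR adjusted p = 0.104), one of -0.14. edgeR and DESeq2 called 0 genes in each of these 5 lists, and at an unadjusted p under 0.05 there were 3 lower capillary, 2 lower tip and 2 lower Notch genes, and 1 higher gene in each of the venous and arterial lists. Among 10 mural genes, of the cells that wrap vessels, Rgs5 was lower (17.6 and 19.1 CPM in overexpression, against 29.0 and 31.2 CPM in WT libraries) and Pdgfrb was higher (141 and 157 CPM in overexpression, against 102 and 113 CPM in WT libraries).

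**Figure D3:**
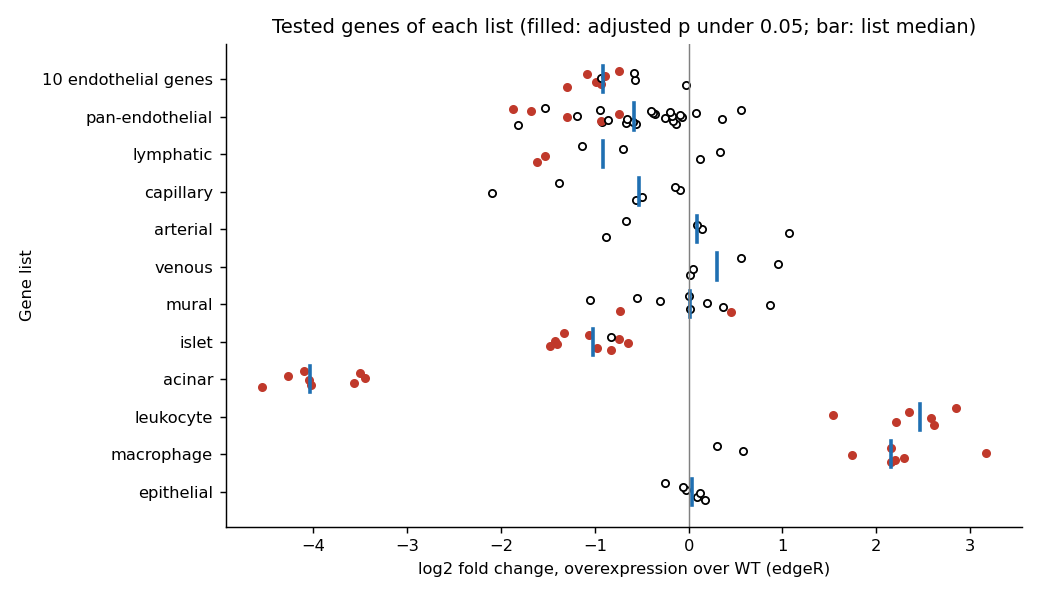
Log2 fold change, overexpression over WT, of each tested gene in 12 lists; filled red points had an adjusted p under 0.05 and blue bars are list medians. The 10 endothelial genes (median -0.92) lie beside the islet list (median -1.02), far above the acinar list (median -4.03), while leukocyte and macrophage genes lie at medians of 2.46 and 2.16.

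Markers of other cell types moved in the same libraries. Islet genes, Gcg and Ins2 among them, were lower in 9 of 10 (8 with DESeq2; median log2 fold change -1.02) and summed to 608 to 659 CPM in overexpression, against 1264 to 1420 CPM in WT libraries. Acinar genes, Pnlip and Cela2a among them, were lower in 8 of 8 (median -4.03) and summed to 1214 to 1341 CPM in overexpression, against 16950 to 17374 CPM in WT libraries. Leukocyte genes were higher in 6 of 6 and summed to 60.5 to 67.9 CPM in overexpression, against 12.6 to 14.2 CPM in WT libraries, and macrophage genes were higher in 6 of 8, at 227 to 235 CPM in overexpression, against 79.9 to 81.9 CPM in WT libraries. Neutrophil genes were higher in 6 of 7 (median log2 fold change 5.54), at 168 to 182 CPM in overexpression, against 53.6 to 54.9 CPM in WT libraries. Ltf, named with its values in view, made up most of these WT sums, at 51.6 and 51.8 CPM. It was at 50.4 and 54.8 CPM in overexpression libraries and did not pass the test (edgeR adjusted p = 0.986). Erythroid genes were higher in 1 of 5 tested (Hbb-bs). None of the genes of these 6 lists was at 0 in all 4 libraries. Leukocytes or macrophages can also make Pecam1 and Eng, and which cells carried their mRNA was not tested. The 6 epithelial genes summed to 12607 to 13306 CPM in overexpression, against 11881 to 12266 CPM in WT libraries; edgeR called 0 of them and DESeq2 1 higher and 1 lower, the same counts as edgeR at an unadjusted p under 0.05. Fibroblast genes were higher in 1 of 7 (Col1a2) and of the platelet genes edgeR and DESeq2 called 0 of 2 tested, with 1 higher (Pf4) at an unadjusted p under 0.05; the platelet genes Gp1bb and Gp6 were at 0 in these 4 libraries. The part of these other cell types in the endothelial result was not tested.

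The second comparison set Ly6d-high cells against Ly6d-low cells. Here none of the endothelial genes passed the test, and most were at low counts. Of the 10 genes, 8 passed the filter of 1 TPM in at least 2 of 4 libraries, and Cdh5 and Tek did not. Of the 8, limma on log2(TPM + 1) called 0, and at an unadjusted p under 0.05 it gave 2 higher, Plvap and Esam, and 0 lower. edgeR on recovered reads tested all 10 and called 0, with 2 higher and 1 lower at an unadjusted p under 0.05. As its own background, that fit covered 15275 genes and made 1815 calls, 1224 of them upward and 591 downward. Counts from recovered reads given below are to be set against these calls. With limma, over all 14625 genes tested, 8.64% were higher, 1.17% lower and 9.81% called in either direction. The median difference was 0.15 over the 8 genes, against 0.25 over all genes, a shift of the table as a whole under this scaling. With TMM factors on TPM the medians were -0.02 over the 8 genes and -0.01 over all genes.

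**Figure D4:**
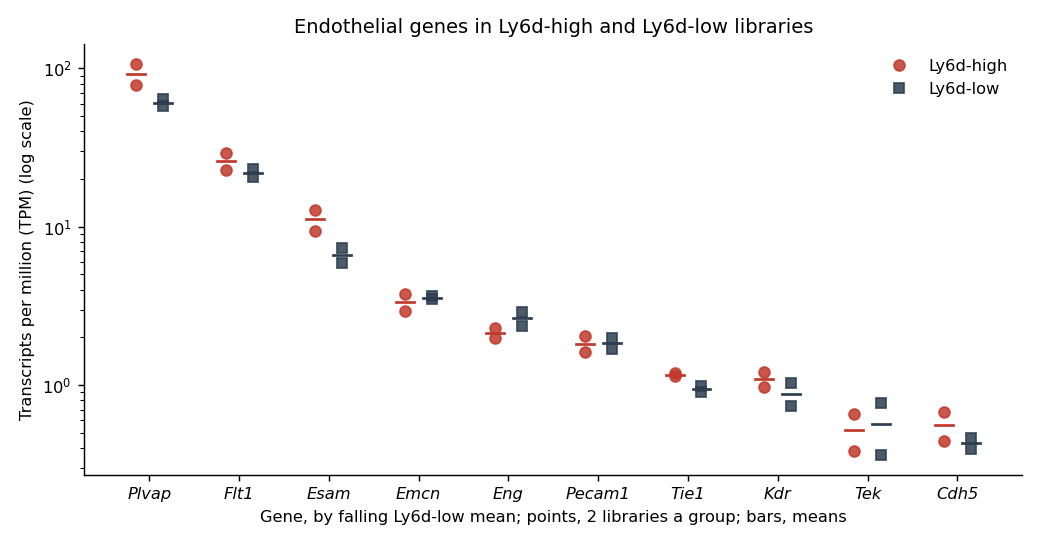
TPM (log axis) of the 10 endothelial genes, in order of falling Ly6d-low mean, in the 2 Ly6d-high libraries (circles, left of each pair) and the 2 Ly6d-low libraries (squares, right); short bars are group means. Plvap and Flt1 lie above 20 TPM in every library, Esam between 5.95 and 12.8 TPM, and Kdr, Tie1, Tek and Cdh5 at 1.22 TPM or less.

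Plvap and Esam stood highest relative to Ly6d-low cells. Plvap was at 78.0 and 107 TPM in Ly6d-high libraries, against 57.5 and 63.8 TPM in Ly6d-low libraries, and the groups did not overlap. On the log2(TPM + 1) scale Plvap differed by 0.59 ± 0.18 (SE; limma adjusted p = 0.0849), and by 0.30 ± 0.12 as a log2 fold change with edgeR on recovered reads (SE; adjusted p = 0.145). Esam was at 9.40 and 12.8 TPM in Ly6d-high libraries, against 5.95 and 7.35 TPM in Ly6d-low libraries, a difference of 0.66 ± 0.21 (SE; limma adjusted p = 0.0951). Both passed the test without Ly6d-high replicate 1 (adjusted p = 0.00212 for Plvap and 0.00708 for Esam), as did Flt1 (adjusted p = 0.0263). In that fit 5599 of all 13627 genes tested were higher and 1111 lower, so that such calls were common throughout the table. That library held the lower value of each of these genes in its group.

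Among the receptor tyrosine kinase genes and the junction genes Pecam1 and Cdh5, Flt1 had the highest level and the others were at 2.04 TPM or less in each library. Flt1 was at 22.7 and 29.2 TPM in Ly6d-high libraries, against 20.8 and 23.0 TPM in Ly6d-low libraries, and the groups overlapped. Kdr was at 0.967 and 1.22 TPM in Ly6d-high libraries, on 70 and 73 reads, against 1.03 and 0.739 TPM in Ly6d-low libraries, on 56 and 51 reads. Tie1 was at 1.14 and 1.19 TPM in Ly6d-high libraries, against 0.909 and 0.985 TPM in Ly6d-low libraries. These receptors differed by 0.15 (Kdr and Tie1) and 0.23 (Flt1) on the log2(TPM + 1) scale, no more than the shift of all genes, and with TMM factors by 0.01, 0.01 and -0.05. Pecam1 was at 2.04 and 1.62 TPM in Ly6d-high libraries, against 1.99 and 1.70 TPM in Ly6d-low libraries. Cdh5 was at 0.445 and 0.680 TPM in Ly6d-high libraries, on 15 and 19 reads, against 0.394 and 0.467 TPM in Ly6d-low libraries, on 10 and 15 reads. Tek was at 0.662 and 0.383 TPM in Ly6d-high libraries, against 0.773 and 0.361 TPM in Ly6d-low libraries, on 12 to 25 reads each. The groups overlapped for Kdr, Pecam1, Cdh5 and Tek, and not for Tie1.

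Emcn and Eng completed the set. Emcn was at 3.78 and 2.95 TPM in Ly6d-high libraries, against 3.64 and 3.51 TPM in Ly6d-low libraries, with overlapping groups. Eng was at 1.97 and 2.30 TPM in Ly6d-high libraries, against 2.37 and 2.91 TPM in Ly6d-low libraries, with no overlap and a difference of -0.21 ± 0.21 (SE; limma adjusted p = 0.509). With edgeR on recovered reads it was -0.61 ± 0.24 as a log2 fold change (SE; adjusted p = 0.141), the lowest of the 10. In all, 3 of the 10 genes had both Ly6d-high libraries above both Ly6d-low libraries and 1 had both below, while over all tested genes the shares were 54.4% and 10.4%.

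Among the 28 pan-endothelial genes, 19 were tested and limma called 0, with 6 higher at an unadjusted p under 0.05; the lowest p was that of S1pr1, a lipid receptor (3.93 and 5.38 TPM in Ly6d-high, against 1.90 and 2.36 TPM in Ly6d-low libraries, limma adjusted p = 0.0579), and edgeR on recovered reads called 1 gene lower. The junction gene Cldn5 and the endothelial transcription factor gene Erg, named with their values in view, were at 1.85 and 2.12 TPM and at 0.144 and 0 TPM in Ly6d-high libraries, against 0.584 and 1.20 TPM and 0.0477 and 0.227 TPM in Ly6d-low libraries. In the lymphatic list, limma called 2 of 3 tested genes higher, Prox1 and Pdpn, and edgeR on recovered reads called 1. Prox1 was at 4.56 and 5.99 TPM in Ly6d-high libraries, against 0.375 and 0.343 TPM in Ly6d-low libraries. Lyve1, Flt4, Reln and Mmrn1, of the same list, did not pass the filter on low values. Among mural genes Rgs5 was at 68.7 and 78.5 TPM in Ly6d-high libraries, against 3.35 and 3.25 TPM in Ly6d-low libraries (difference 4.11 ± 0.16 SE, limma adjusted p = 2.53e-05), and Mcam was also higher. The mural list had 6 of 10 genes tested, 2 higher with limma and 2 with edgeR on recovered reads, 5 higher at an unadjusted p under 0.05 and a median difference of 0.63. Pdgfrb, at 15.3 and 22.4 TPM in Ly6d-high and 11.4 and 12.3 TPM in Ly6d-low libraries, Des and Acta2 did not pass the adjusted test, and Notch3, Cspg4 and Abcc9 were under 1 TPM in each library; these 6 were named with their values in view. The tip cell list had 1 of 5 tested genes higher, the potassium channel subunit gene Kcne3, at 174 and 160 TPM in Ly6d-high libraries, against 102 and 98.3 TPM in Ly6d-low libraries, a call not made on recovered reads. In the VEGF list limma called 0 of 7 tested genes, led by Vegfd (limma adjusted p = 0.0631), with 4 higher and 1 lower at an unadjusted p under 0.05, and edgeR on recovered reads called 1 lower. In the angiopoietin, endoglin, Notch, capillary, arterial and venous lists limma called 0 genes, with 4 venous and 3 endoglin axis genes higher at an unadjusted p under 0.05, and edgeR on recovered reads called 1 capillary gene higher.

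Other cell types again differed between these libraries. Macrophage genes were higher in 4 of 7 tested with limma and 5 with edgeR on recovered reads, and summed to 196 to 206 TPM in Ly6d-high, against 66.3 to 70.1 TPM in Ly6d-low libraries. Acinar genes were higher in 7 of 8 with limma and 5 with edgeR on recovered reads, and summed to 9715 to 10297 TPM in Ly6d-high, against 4392 to 4449 TPM in Ly6d-low libraries. Leukocyte genes were higher in 2 of 5 tested, Laptm5 and Rac2, and neutrophil genes in 1 of 2 tested, Ltf. Of the 7 neutrophil genes only these 2 passed the filter on low values, and Camp was at 0 in all 4 libraries. Ltf was also the neutrophil gene that was not called in overexpression over WT libraries, so its call here does not stand for the list. Epithelial genes were lower in 4 of 6 with limma and 5 with edgeR on recovered reads, with sums of 38558 to 39489 TPM in Ly6d-high and 55454 to 56566 TPM in Ly6d-low libraries. Islet genes were lower in 4 and higher in 1 of 8 tested with limma, and lower in 6 and higher in 1 with edgeR on recovered reads, with sums of 421 to 476 TPM in Ly6d-high and 717 to 751 TPM in Ly6d-low libraries. The 10 endothelial genes summed to 121 and 160 TPM in Ly6d-high libraries, against 95.3 and 105 TPM in Ly6d-low libraries. Without Plvap and Flt1, left out with their values in view, the other 8 summed to 20.4 and 23.2 TPM in Ly6d-high libraries, against 17.1 and 18.0 TPM in Ly6d-low libraries. The part of other cell types in these values was not tested.

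The genes did not keep 1 proportion across the libraries, so that their ratios differed between libraries. Counted per length, Plvap had the highest and Flt1 the second highest level in each of the 4 groups. Plvap averaged 27.9 ± 0.647 CPM per kb in overexpression and 52.8 ± 2.73 CPM per kb in WT libraries, and 92.6 ± 20.7 TPM in Ly6d-high and 60.6 ± 4.49 TPM in Ly6d-low libraries (SD, n = 2 each). The next rank differed between the tables: it was held by Eng in the overexpression and WT groups, at 7.30 ± 0.621 and 12.1 ± 0.259 CPM per kb, and by Esam in the Ly6d-high and Ly6d-low groups, at 11.1 ± 2.44 and 6.65 ± 0.992 TPM (SD, n = 2 each). In the overexpression group, the means of Pecam1 and Cdh5, at 4.25 ± 0.277 and 5.06 ± 2.65 CPM per kb (SD, n = 2 each), stood next to each other in this order. They differed by less than the SD of Cdh5, but by more than that of Pecam1.

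**Figure D5:**
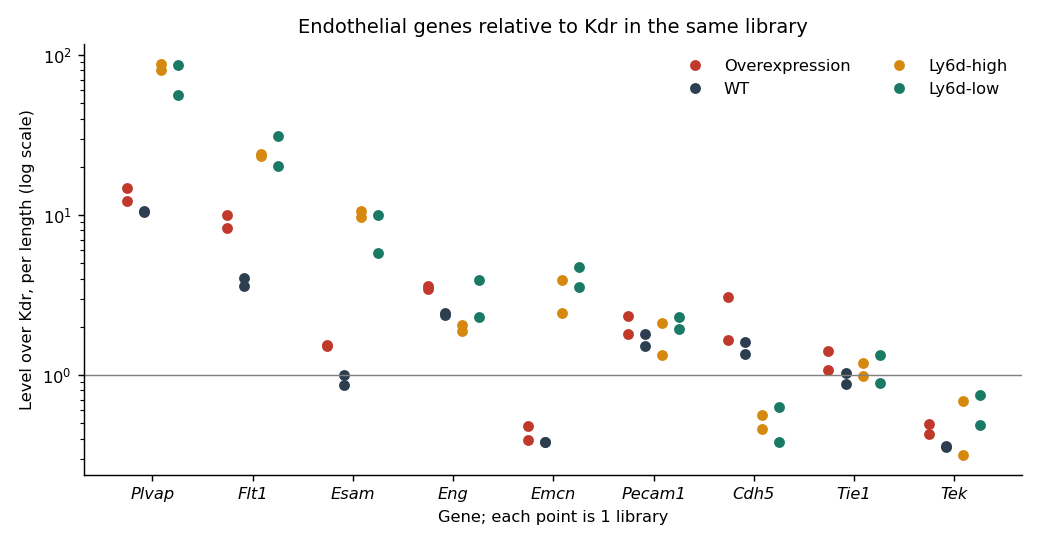
Level per length of 9 endothelial genes over that of Kdr in the same library (log axis), with each point 1 library of the overexpression, WT, Ly6d-high and Ly6d-low groups. Pecam1, Tie1 and Tek keep within 0.315 and 2.32 times Kdr in all 8 libraries, while Flt1 spans 3.58 to 31.1 times and Plvap 10.4 to 88.2 times.

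Per length and relative to Kdr in the same library, Pecam1 lay between 1.33 and 2.32, Tie1 between 0.873 and 1.42 and Tek between 0.315 and 0.753 in all 8 libraries. Flt1 lay between 8.34 and 9.98 in overexpression and between 3.58 and 4.01 in WT libraries, and between 23.4 and 24.0 in Ly6d-high and 20.2 and 31.1 in Ly6d-low libraries. Plvap lay between 12.2 and 14.8 in overexpression and 10.4 and 10.5 in WT libraries, and between 80.7 and 88.2 in Ly6d-high and 56.0 and 86.3 in Ly6d-low libraries. The ratios of Esam and Emcn were also higher in the Ly6d-high and Ly6d-low cells, with Esam between 0.866 and 1.54 in the overexpression and WT libraries and between 5.79 and 10.6 in the sort by Ly6d level, and Emcn between 0.379 and 0.480 in the overexpression and WT libraries and between 2.42 and 4.75 in that sort. For Cdh5 the ratio was higher in the overexpression and WT libraries, at 1.35 to 3.09, than in the sort by Ly6d level, at 0.384 to 0.632. The tables were made separately, and no test was made between them. Plvap and Flt1 were far above the defining junction gene Cdh5 in both groups of that sort. Cdh5 averaged 0.562 ± 0.166 TPM in Ly6d-high and 0.430 ± 0.0518 TPM in Ly6d-low libraries, and Flt1 25.9 ± 4.64 TPM in Ly6d-high and 21.9 ± 1.58 TPM in Ly6d-low libraries (SD, n = 2 each). Which cells carried the Flt1 and Plvap mRNA was not tested.

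The genes whose profile was most like that of the set included genes of digestive enzymes. The mean of the 8 genes tested in both comparisons, on log2 values centred within each table, was compared over the 8 libraries with 11466 genes at a mean of at least 1 CPM and 1 TPM. Among the closest genes outside the set were Serpini2 (Pearson r = 0.991), Rbm12b1, Cela3b, Cpb1, Baiap2l2, Chac1 and Ccdc25 (r = 0.981), of which Cpb1 and Cela3b encode digestive enzymes of acinar cells. Cpb1 was at 84.0 and 101 CPM in overexpression libraries, against 1410.4 and 1602 CPM in WT libraries, and at 532 and 545 TPM in Ly6d-high libraries, against 285 and 296 TPM in Ly6d-low libraries. Likeness here weighs shape and not size: Cpb1 had a log2 fold change of -4.04 ± 0.11 (SE; edgeR adjusted p = 4.02e-10) in overexpression over WT libraries, against the -1.29 of Kdr. Of the set, 7 genes passed that level and were compared with the mean, Kdr, Cdh5 and Tek not being among them. Tie1 had an r of 0.948, Plvap of 0.912, Emcn of 0.889 and Flt1, the lowest of the 7, of 0.271. Among the 50 genes closest to the mean, 1 was of the set, so likeness to this mean was not particular to endothelial genes. All these values share the same 8 libraries and the members are part of their own mean, so they are given as a description.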

How the data were processed

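Per the labels' protocols, TRIzol RNA was read on an Illumina instrument. The tools named in the submitters' processing notes, with no version, are fastp, HISAT2, featureCounts and DESeq2, and mm9 is named as the build. Gene coordinates in the deposited tables were found in GENCODE M21 (GRCm38) for 54495 genes, with 98.3% at the same place, and are given as GRCm38. The deposited table of overexpression and WT cells holds raw counts per gene. For the cells sorted by Ly6d level the authors deposited TPM. The gene length column of the deposited tables is in bases. A further 2 count columns, which no label names, were left out.

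The count test was edgeR 4.0.16 under R 4.3.3 (filterByExpr, TMM, glmQLFit, glmQLFTest), with standard errors taken as the log2 fold change over the square root of F. TPM were tested with limma 3.58.1 (trend) on log2(TPM + 1), with 1 as the pseudocount, for genes reaching 1 TPM in 2 or more libraries; such differences understate the change of low genes. Adjusted p-values (Benjamini-Hochberg, over all genes tested) had to lie under 0.05. Levels between genes were compared as CPM per kb of the listed length or as TPM. TPM times length came in whole steps for 100% of 85643 values above 0 (within 0.1 reads), so reads were recovered for an edgeR fit. Both fits were run on data simulated from the counts, with the same spread setting for all genes and no shift of the table as a whole. That run does not show how the fits behave where such a shift is present. Alternatives were DESeq2 1.42.0, other normalizations, filters and pseudocounts, and leaving out each library.

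The 10 genes and all lists were chosen with earlier results of these data known. Of other lists, up to 6 genes past the threshold with the lowest p, or else the 1 with the lowest p, were to be named, with the 8 genes of the closest profile, of which 1 is not reported here; other genes given with values are marked as named with these in view.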

Additional observations from a re-analysis of the deposited data

How the results depend on the processing

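In overexpression against WT cells, the number of lower endothelial genes was 5 with DESeq2, 6 with RLE size factors and 8 with no filter on low counts, against 6 in the test reported, and leaving out 1 library at a time gave 4 (without WT replicate 1) to 9 (without overexpression replicate 2). In these settings 0 of the 10 were higher, and the median log2 fold change ran from -0.94 to -0.75. Over all genes, 656 calls became 1187 with no filter, and 565 to 1584 when 1 library was left out, with 1584 without overexpression replicate 1 and 1062 without overexpression replicate 2. In Ly6d-high against Ly6d-low cells, 0 of the endothelial genes were called with a pseudocount of 0.1, no filter on low values, TMM factors or edgeR on recovered reads, and leaving out 1 library gave 0 to 3 higher, the 3 being without Ly6d-high replicate 1. Over all genes, 1435 calls became 531 with no filter, 917 with TMM factors, and 931 (without Ly6d-low replicate 1) to 6710 (without Ly6d-high replicate 1) when 1 library was left out. With the replicate number as a block there were 4179 calls (3581 higher and 598 lower of 14625 genes), and 2 endothelial genes, Plvap and Esam, were higher. The labels do not say if libraries with the same number shared anything else. Deviations from the group means correlated at 0.07 across genes for Ly6d-high and Ly6d-low replicates 1. Ly6d-high replicate 1 with Ly6d-low replicate 2 gave -0.07. With 2 libraries a group these values are opposite by construction, so they cannot decide if libraries were paired. For overexpression against WT, no paired analysis was possible because the overexpression columns carry no number of the labels. The cause of these changes was not tested. In the sort by Ly6d level, Cdh5 and Tek rested on 10 to 25 reads a library, which limits their precision.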
